A study of Mus musculus with 17 samples.

Results

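The 9 genes described here are genes by which spiral ganglion neurons and their fibres are recognised. They were chosen by symbol from the deposited table of FPKM values (fragments on a gene scaled to its exon length and to the size of the library), and each was found there once among 35285 genes. Nefl, Nefm and Nefh encode the light, medium and heavy neurofilament subunits. Prph encodes peripherin, Tubb3 a neuronal beta-tubulin, Snap25 a SNARE protein of the presynaptic membrane, Calb2 the calcium-binding protein calretinin, Epha4 an Eph receptor and Gata3 a transcription factor. Total RNA from the cochleae of 17 male C57BL/6J mice, wild type and 8 weeks old, had been sequenced on the second day after noise exposure (NE). Mice of the NE group (n = 7) were exposed for 2 h to noise of 8 to 16 kHz at 100 dB. The brimonidine group (n = 7) was exposed likewise and was given brimonidine, which activates α2-adrenergic receptors, by intraperitoneal injection at 1 mg/kg on 3 days, from the day before to the day after exposure. Control mice (n = 3) received saline on the same schedule and no noise. No sequenced group received brimonidine without noise, and no injection is stated for the NE group. The labels name the samples "cochlear cells" and the cell type "interstitial cells", whereas the methods name cochleae in one place and tissue of the basilar membrane in another.

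Spiral ganglion neurons carry the signals of the hair cells to the brainstem. Type I neurons, the great majority, contact inner hair cells and have thick myelinated axons that are rich in neurofilaments. Type II neurons contact outer hair cells and are the neurons of the adult ganglion with the most peripherin. Neurofilaments are built from the 3 subunits together with alpha-internexin (Ina) or peripherin, all members of the intermediate filament family. Calretinin marks a subset of type I neurons, GATA3 is needed for the development of the ganglion and remains in supporting cells and neurons, and EphA4 guides auditory fibres. None of the 9 genes is restricted to the cochlea, and brainstem and cerebellar neurons express most of them.

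The kinship within the filament family can be read in the coding sequence at the end of the central rod, the part by which filament proteins pair. In the stretches below, taken from GENCODE M21 transcripts (build GRCm38), capitals mark the 50 of 60 bases that Nefl, Nefh and Ina have in common. They are shown to let the light and heavy subunits be compared with their partner alpha-internexin.
Nefl: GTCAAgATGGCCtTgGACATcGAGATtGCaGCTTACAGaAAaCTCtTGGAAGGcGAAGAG
Nefh: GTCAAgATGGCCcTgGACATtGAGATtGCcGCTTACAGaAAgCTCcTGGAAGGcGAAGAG
Ina: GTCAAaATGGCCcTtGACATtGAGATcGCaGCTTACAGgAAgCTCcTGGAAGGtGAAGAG
The stretch of Nefl is coding bases 1135 to 1194 of 1629, and those of Nefh and Ina share 55 and 51 of the 60 bases with it. Over whole transcripts, the longest run of identical bases between any pair of Nefl, Nefm, Nefh, Prph and Ina was 35, between Nefm and Prph. Tubb3 had at most 45 identical bases in a row with Tubb2a or Tubb2b, whereas Tubb2a and Tubb2b had 551 in common, so values of the latter pair are uncertain.

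Nefl (chr14:68083863-68089095, plus strand) and Nefm (chr14:68082590-68124846, minus strand) lie on opposite strands, the former within the annotated span of the latter, and 1108 exonic bases belong to both annotations. The library kit kept strand, but the strand setting of the counting is not given in the sources used here. Without it, fragments of this overlap could be counted for either gene. Nefh lies at chr11:4938754-4948064 (minus strand), Prph at chr15:99055174-99058978 (plus) and Tubb3 at chr8:123411424-123422015 (plus). Snap25 lies at chr2:136713453-136782428 (plus), Calb2 at chr8:110137502-110168210 (minus) and Epha4 at chr1:77367185-77515088 (minus). Gata3, at chr2:9857078-9890034 (minus), has 155 exonic bases under the antisense gene Gm13256 and 77 under 9230102O04Rik on its own strand.

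Promoter sequences for Prph, Tubb3, Epha4 and Gata3 were found in the RefSeq table (build GRCm38.p6), which runs from 250 bases before to 50 after the RefSeq start site. For Tubb3 and Gata3 this site lies inside the span given above, the Gata3 window being chr2:9878551-9878850 (minus strand). The windows of Prph and Tubb3 are shown because both are neuronal cytoskeleton genes that were highest in the same exposed library. Capitals mark matches, on either strand, of the TATA box as TATAAA or in the variant TATAAG, of the GC box as GGGCGG, and of the CCAAT box.
Prph (chr15:99054924-99055223, plus strand): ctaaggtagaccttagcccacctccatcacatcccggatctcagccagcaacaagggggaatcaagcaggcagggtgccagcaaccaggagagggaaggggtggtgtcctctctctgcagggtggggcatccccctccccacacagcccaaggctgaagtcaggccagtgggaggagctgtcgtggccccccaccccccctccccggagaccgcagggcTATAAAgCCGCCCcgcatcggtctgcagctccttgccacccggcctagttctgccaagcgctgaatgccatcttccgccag
Tubb3 (chr8:123411303-123411602, plus strand): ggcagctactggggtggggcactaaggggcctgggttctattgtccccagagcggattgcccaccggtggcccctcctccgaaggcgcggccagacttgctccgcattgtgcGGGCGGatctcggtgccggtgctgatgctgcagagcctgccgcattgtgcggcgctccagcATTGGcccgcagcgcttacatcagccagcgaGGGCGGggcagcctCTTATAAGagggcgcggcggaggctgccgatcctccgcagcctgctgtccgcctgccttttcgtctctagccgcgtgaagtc
The Prph window held TATAAA 31 bases before the start, a motif found in 13.6% of 32851 promoters of this length, and GGGCGG on the other strand (35.7% of promoters). The Tubb3 window held TATAAG 30 bases before the start, overlapping its own match on the other strand (7.4% of promoters), GGGCGG at 2 places and CCAAT on the other strand (37.4%). The Gata3 window had GGGCGG at 2 places and the Epha4 window had GGGCGG and CCAAT at 1 place each. These are matches of letters and were not tested as sites.

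The libraries held between 14457726 and 18288842 counted fragments, a depth recovered from the FPKM values, and the fewest fragments on any of the 9 genes in any library were 18, on Prph, whose values gave whole fragments with a length of 1865 bases and not with the 1999 bases of its GENCODE M21 exons. Control 2 stood apart: its median correlation with the other libraries was 0.831, against 0.947 to 0.981 for the remaining 16. All 9 genes were highest in control 2 among the controls, with a median of 2.63 times the mean of controls 1 and 3, where the median of all genes was 1.08. Markers of cochlear epithelium were 2.42 times, of hair cells 2.39 times, of Schwann cells 2.11 times and of osteoblasts 2.0 times as high there, and marrow markers were 0.281 times as high. Control samples also carried much more of the markers of cerebellar and hindbrain neurons, with a summed FPKM over 14 genes of 255, 693 and 265 against 20.9 to 32.5 in the NE group and 22.1 to 90.6 in the brimonidine group. The granule cell genes Gabra6 and Neurod1 had 31.5, 93.4 and 36.9 FPKM and 16.7, 46.7 and 18.1 FPKM in controls 1, 2 and 3, and at most 2.08 and 0.919 FPKM in NE samples. The cochlear tissue itself was present in every library: Otof of hair cells was at 1.96 to 6.06 FPKM and Gjb2 of supporting cells at 49.5 FPKM or more. Bone and marrow were present as well, with Bglap at 59.9 FPKM or more and S100a8 at 1587 FPKM or more.

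**Figure D1:**
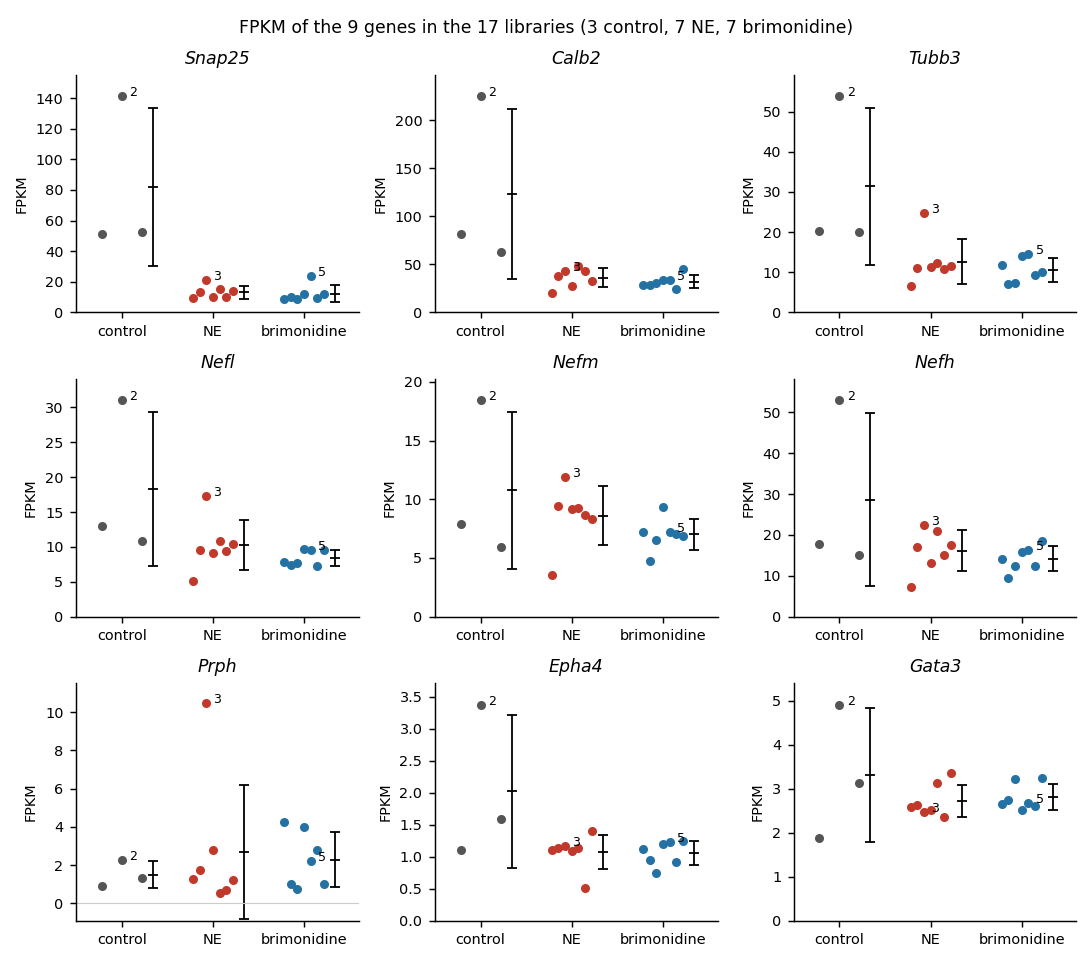
FPKM of each of the 9 genes (y axis, linear, from 0 except where an SD bar reaches below it) in every library, one point per mouse, with the group mean and SD as black bars; the numbers 2, 3 and 5 mark control 2, NE 3 and brimonidine 5. Control 2 is the highest control point in all 9 panels, and for Snap25 and Calb2 every control point lies above all 14 exposed points.

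In controls the order of levels per exon length, by median FPKM, was Calb2 (81.9), Snap25 (52.4), Tubb3 (20.2), Nefh (17.8), Nefl (13.0), Nefm (7.93), Gata3 (3.14), Epha4 (1.59) and Prph (1.33), and each of the 3 libraries held this order between neighbours. The ranges of neighbouring genes over the 3 controls overlapped except between Nefm and Gata3. In the 14 exposed mice Calb2 stayed first, at a median of 33.3 FPKM, and Snap25 stood behind Nefh and beside Tubb3, at medians of 11.1, 15.4 and 11.2 FPKM. Nefh was above Snap25 in 6 of 7 NE libraries and 5 of 7 brimonidine libraries. Among the low genes, Gata3 was above Prph in 9 of 14 exposed libraries and Prph above Epha4 in 10 of 14, so their order was not fixed. In bulk samples, fewer cells of a type and less RNA per cell cannot be told apart.

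Noise-exposed mice without brimonidine had less Snap25 and Calb2 than controls, whereas the neurofilament genes, Prph, Epha4 and Gata3 did not pass the test. In the limma fit a gene counted as changed where its p, adjusted by Benjamini and Hochberg, was under 0.05 and its log2 fold change was 1 or more in size, on the log2(FPKM + 1) scale, which understates changes of low genes. By this rule 2 of the 9 genes fell and none rose, beside 5.49% of all 15950 genes tested that fell. All 7 NE libraries lay below all 3 controls for the same 2 genes, as they did for 15.0% of genes tested. The median log2 fold change of the 9 genes was -0.63, and that of all genes was -0.04. Without control 2, Snap25 alone was called and the median of the 9 genes was -0.18, and 2.2% of genes tested fell.

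The same comparison for the brimonidine group gave lower values of Snap25, Calb2 and Tubb3. These 3 of 9 genes fell and none rose, with 5.56% of all 15947 genes tested falling, and the median log2 fold change of all 9 was -0.77. Every brimonidine library lay below every control for 4 genes, Nefl being the fourth, and the same held for 14.3% of genes tested. Without control 2, Snap25 and Calb2 were called (2 of 9), the median of the 9 was -0.22, and 2.9% of genes tested fell. Both comparisons used the same 3 control libraries.

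Brimonidine made no detectable difference to the 9 genes among noise-exposed mice. None of the 9 was called in the limma fit of the brimonidine group against the NE group, none had an unadjusted p under 0.05 (5.77% of all 15707 genes tested did), and 0% of all genes were called. Adjusted p values ranged from 0.904 to 0.999. Exact two-sided permutation tests of the 7 and 7 libraries gave p between 0.303 and 0.948. The 95% confidence intervals bound the difference that could have been missed: -0.11 to 0.18 on the log2 scale for Gata3, -0.22 to 0.20 for Epha4, -0.56 to 0.15 for Nefl, -0.59 to 0.31 for Snap25 and -0.79 to 0.92 for Prph, the widest. Single libraries moved these values. Without brimonidine 5 the Snap25 difference went from -0.14 to -0.31 (interval -0.66 to 0.04), and without NE 3 to -0.025 (interval -0.45 to 0.40). The Prph difference went from 0.07 to 0.40 without NE 3 (interval -0.22 to 1.02). None of these was called.

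**Figure D2:**
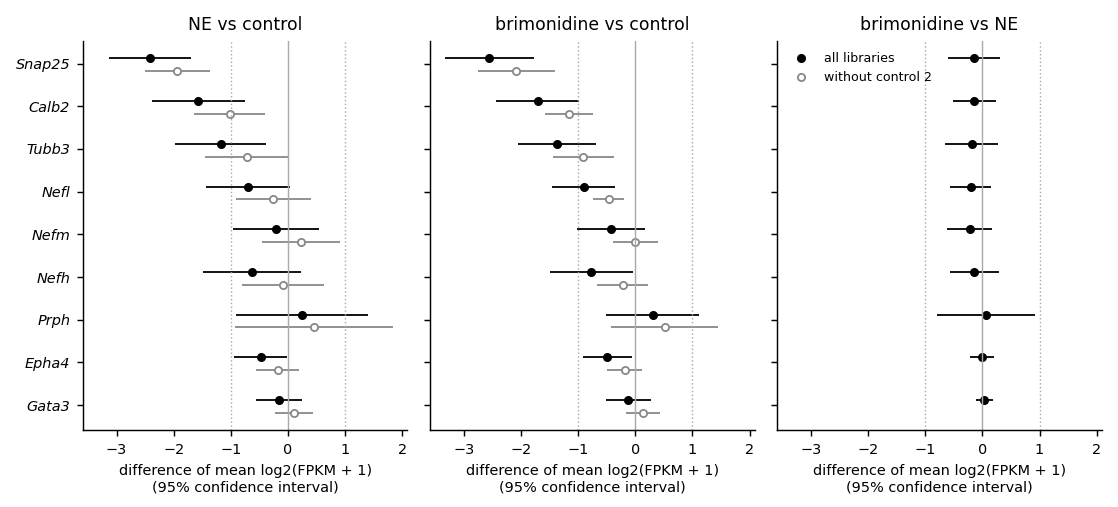
Differences of group means on the log2(FPKM + 1) scale (x axis) with 95% confidence intervals from limma for the 9 genes in 3 comparisons; filled circles use all libraries, open circles leave out control 2, and dotted lines mark -1 and 1. Snap25 lies at -2.41 and -2.56 against controls with all libraries and at -1.94 and -2.08 without control 2, and all 9 intervals of brimonidine against NE include 0.

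Snap25, which pairs with syntaxin and synaptobrevin to fuse vesicles with the membrane, had the largest difference of the 9 genes. It stood at 51.3, 141 and 52.4 FPKM in controls 1, 2 and 3. The NE group ranged from 9.34 to 21.4 FPKM with a median of 13.4, and the brimonidine group from 8.68 to 24.0 FPKM with a median of 10.2. No exposed library reached the lowest control. Group means were 81.6 ± 51.6 FPKM in controls, 13.3 ± 4.26 FPKM after NE and 12.2 ± 5.41 FPKM with brimonidine (SD). The control mean was 6.15 times the NE mean and 6.69 times the brimonidine mean, and without control 2 it was 3.904 times the NE mean. The log2 fold change was -2.41 in the NE group (SE 0.33, limma adjusted p = 0.00086) and -2.56 in the brimonidine group (SE 0.35, limma adjusted p = 0.00128). Exact permutation tests of 7 against 3 libraries gave p = 0.0167 in both, the smallest p this design allows.

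Snap25 was compared with the cerebellar and hindbrain markers in the same libraries. Control 2 had the highest sum of these markers and the highest Snap25. Among the brimonidine samples, number 5 had the highest marker sum, 90.6 against 22.1 to 27.1 in the other 6, and the highest Snap25, 24.0 against 8.68 to 12.1 FPKM. NE 3, with Snap25 at 21.4 FPKM, had a marker sum of 22.3, within the range of the other NE libraries. NE 1, with the highest marker sum of its group, 32.5, had the lowest Snap25 of its group, 9.34 FPKM. That library was also the lowest of its group for Calb2, Nefl, Nefm, Nefh and Tubb3. All 14 markers were below every control in all NE libraries, and 13 of them were called lower. Of the 14, 6 reached 1 FPKM in controls only and so passed the filter through the group where they were high, and all of the other 8 were called lower. The granule cell marker Gabra6 was at 0 to 2.08 FPKM in the NE group and Pcp2 of Purkinje cells at 0 to 0.248 FPKM. The part of these cells in the Snap25 difference was not tested. Without control 2 and brimonidine 5, Snap25 had a log2 fold change of -2.25 between the brimonidine and control groups (limma adjusted p = 8.58e-06).

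**Figure D3:**
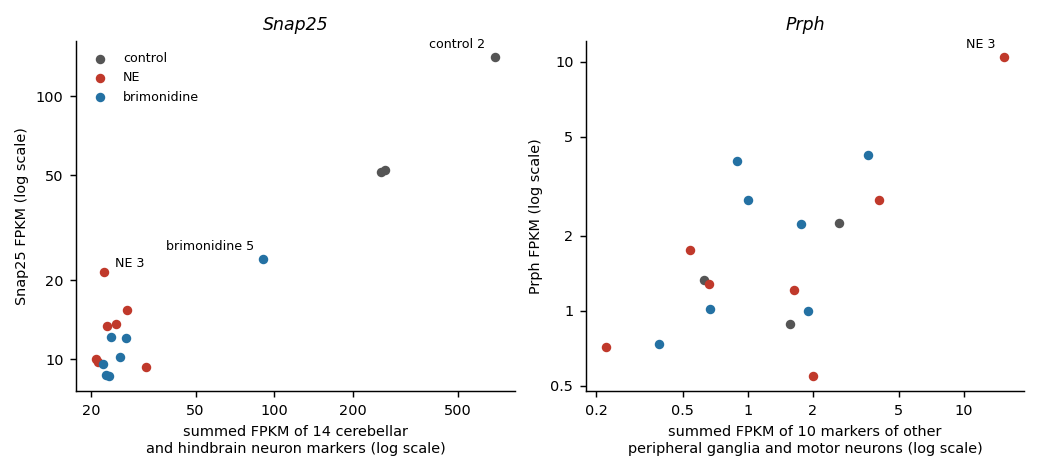
Left, Snap25 FPKM against the summed FPKM of 14 markers of cerebellar and hindbrain neurons; right, Prph FPKM against the summed FPKM of 10 markers of other peripheral ganglia and motor neurons; both axes are logarithmic and each point is 1 library. The 3 controls, with marker sums of 255 to 693, lie at the upper right of the left panel. Brimonidine 5, with a marker sum of 90.6, lies between them and the other exposed libraries. NE 3 lies alone at the upper right of the right panel with a marker sum of 15.4.

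Calb2, calretinin, was at 81.9, 225 and 63.2 FPKM in controls 1, 2 and 3. NE libraries had 20.04 to 48.6 FPKM with a median of 38.4, and brimonidine libraries 24.2 to 45.1 FPKM with a median of 31.1. Both exposed groups stayed below the lowest control. Means were 124 ± 88.7, 36.2 ± 9.95 and 32.1 ± 6.66 FPKM (SD) in the control, NE and brimonidine groups. The control mean was 3.41 times that of the NE group, and 2.01 times without control 2. On the log2 scale the difference was -1.57 (SE 0.37, limma adjusted p = 0.0176) in the NE group and -1.71 (SE 0.33, limma adjusted p = 0.00583) in the brimonidine group. Leaving out control 2 gave -1.02 with an adjusted p of 0.0616 in limma for the NE group, which was no longer called, and -1.17 with an adjusted p of 0.00345 for the brimonidine group. In brimonidine 5, whose cerebellar markers were high, Calb2 was at 33.7 FPKM, inside the range of the other 6. The part of cerebellar cells in the Calb2 difference from controls was not tested.

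Tubb3, a tubulin largely limited to neurons, was at 20.2, 53.8 and 20.1 FPKM in controls 1, 2 and 3. The NE group ranged from 6.62 to 24.7 FPKM with a median of 11.3, and the brimonidine group from 7.04 to 14.6 FPKM with a median of 10.0. A single NE library, NE 3, was above the lower controls, and the other 6 reached at most 12.3 FPKM. The log2 fold change of the NE group was -1.18 (SE 0.36), with a limma adjusted p of 0.0526, just short of the threshold. Without NE 3 it was -1.35 (limma adjusted p = 0.0184) and without control 1 it was -1.41 (limma adjusted p = 0.0377), both called, and without control 2 it was -0.72 (limma adjusted p = 0.249). In the brimonidine group Tubb3 fell by 1.37 on the log2 scale (SE 0.31, limma adjusted p = 0.0148), and without control 2 by 0.91 (limma adjusted p = 0.0407), which is under the minimum fold change. The highest brimonidine value, 14.6 FPKM, was in brimonidine 5, the library with the high cerebellar markers, and the other 6 had at most 14.0 FPKM.

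The light neurofilament gene Nefl had 13.0, 31.0 and 10.9 FPKM in controls 1, 2 and 3. The NE group spanned 5.16 to 17.2 FPKM with a median of 9.59. The brimonidine group was narrower, at 7.21 to 9.69 FPKM with a median of 7.85. Means were 18.3 ± 11.1, 10.3 ± 3.59 and 8.41 ± 1.11 FPKM (SD) in the control, NE and brimonidine groups. Every brimonidine library was below every control, and in the NE group NE 3 was the exception, the other 6 having at most 10.8 FPKM. Against controls, the log2 fold change was -0.70 (SE 0.33, limma adjusted p = 0.173) in the NE group and -0.90 (SE 0.25, limma adjusted p = 0.0351) in the brimonidine group, the latter short of the fold minimum. Leaving out control 1 or control 3 brought the latter to -1.06 or -1.18, which was called. Without control 2 the values were -0.26 (limma adjusted p = 0.69) and -0.47 (limma adjusted p = 0.0426).

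For the medium subunit gene Nefm, controls 1, 2 and 3 had 7.93, 18.4 and 5.97 FPKM. NE libraries had 3.56 to 11.9 FPKM with a median of 9.14, and brimonidine libraries 4.72 to 9.32 FPKM with a median of 7.06. Exposed and control values thus overlapped. On the log2 scale Nefm differed by -0.21 (SE 0.34, limma adjusted p = 0.699) in the NE group and -0.43 (SE 0.27, limma adjusted p = 0.27) in the brimonidine group. Without control 2 the signs changed, to 0.23 and 0.00.

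The heavy subunit gene Nefh had 17.8, 53.0 and 15.0 FPKM in controls 1, 2 and 3. The NE group lay between 7.19 and 22.3 FPKM with a median of 17.0, and the brimonidine group between 9.34 and 18.5 FPKM with a median of 14.1. Controls 1 and 3 sat inside both exposed ranges. On the log2 scale Nefh differed by -0.63 (SE 0.39, limma adjusted p = 0.279) in the NE group and -0.77 (SE 0.33, limma adjusted p = 0.123) in the brimonidine group. Without control 2 it was -0.08 and -0.22.

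Since ratios within a library do not depend on scaling, the subunits were also compared with each other. The ratio of Nefm to Nefl was 0.608, 0.594 and 0.548 in controls 1, 2 and 3, between 0.69 and 1.0 in NE libraries and between 0.637 and 0.978 in brimonidine libraries. All 14 exposed libraries were above all 3 controls, control 2 included. Geometric means were 0.583 in controls, 0.838 for NE alone and 0.824 in the brimonidine group, a log2 difference from controls of 0.52 and 0.50. Exact permutation tests gave p = 0.0167 for each, the smallest p for 7 against 3, and an adjusted p of 0.075 over the 9 ratio tests, so neither passed the correction. As these 2 genes share exonic sequence on opposite strands, the ratio also depends on how fragments there were counted, which was not tested. Cerebellar and hindbrain markers differed as well, with sums of 255 to 693 FPKM in controls and 20.9 to 90.6 FPKM in exposed libraries. The part of such neurons in the ratio was not tested.

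The geometric mean of Nefh to Nefl was 1.48 in controls, 1.57 for NE alone and 1.66 in the brimonidine group, with adjusted p between 0.48 and 0.656 over its 3 exact permutation tests. Prph to Nefl varied most, from 0.0508 to 0.608 in NE libraries and from 0.0962 to 0.538 in brimonidine libraries, against 0.0683 to 0.122 in controls. The geometric mean of Prph to Nefl was 0.223 in the brimonidine group and 0.0848 in controls, with an exact permutation p of 0.05 and an adjusted p of 0.15. Between the brimonidine and NE groups, none of the 3 ratios differed beyond the replicate spread, with adjusted p of 0.644 to 0.843 in exact permutation tests.

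**Figure D4:**
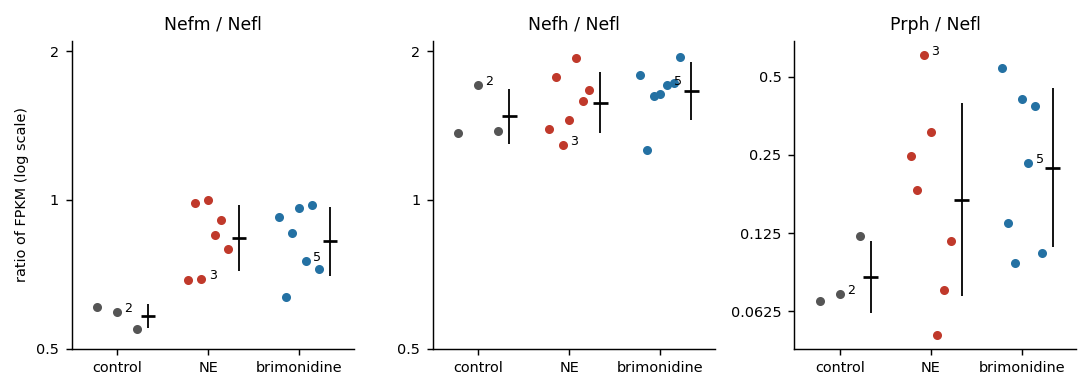
Ratios of FPKM within each library on a logarithmic axis, one point per mouse, with the geometric mean and 1 SD of the log2 ratio as black bars; 2, 3 and 5 mark control 2, NE 3 and brimonidine 5. The 3 controls lie at 0.548 to 0.608 for Nefm to Nefl, below all exposed points, while the groups overlap for Nefh to Nefl and Prph to Nefl.

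Prph, peripherin, was the most variable of the 9 genes among exposed mice, though not among controls, and was high in 1 NE library. Controls 1, 2 and 3 had 0.89, 2.26 and 1.33 FPKM. NE 3 had 10.5 FPKM, and the other 6 NE libraries had 0.551 to 2.79 FPKM. Brimonidine libraries spread from 0.736 to 4.23 FPKM with a median of 2.23. The groups overlapped, and in fragments the values ran from 18 to 342, so the lowest carry sizeable counting error. The log2 fold change was 0.24 (SE 0.52, limma adjusted p = 0.777) in the NE group and 0.31 (SE 0.37, limma adjusted p = 0.574) in the brimonidine group. Without NE 3 the former was -0.09.

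The same NE 3 library was high in markers of other peripheral sensory neurons. Calca, which encodes the peptide CGRP, was at 12.0 FPKM there and at 0.0753 to 3.47 FPKM in the other 13 exposed libraries. The nociceptor genes Scn10a, Trpv1 and Mrgprd were at 1.7, 0.807 and 0.563 FPKM in NE 3, against at most 0.323, 0.226 and 0.104 FPKM in those 13. The 10 measured markers of this list summed to 15.4 FPKM in NE 3, to 0.221 to 4.06 FPKM in the other 13 and to 0.625 to 2.63 FPKM in controls. NE 3 was also the highest NE library for Nefl, Nefm, Nefh, Tubb3 and Snap25. The part of other ganglia in its Prph value was not tested.

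Epha4, a receptor for ephrins of both classes, was low, at 1.1, 3.38 and 1.59 FPKM in controls 1, 2 and 3. The NE group ranged from 0.512 to 1.4 FPKM with a median of 1.13, and the brimonidine group from 0.749 to 1.25 FPKM with a median of 1.12. Control 1 lay among the exposed values. The log2 fold changes of -0.48 (SE 0.21, limma adjusted p = 0.141) and -0.49 (SE 0.20, limma adjusted p = 0.104) did not pass, and without control 2 they were -0.18 and -0.19.

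Gata3 was the steadiest of the 9 genes among exposed mice. Controls 1, 2 and 3 had 1.88, 4.92 and 3.14 FPKM, the NE group 2.36 to 3.37 FPKM and the brimonidine group 2.52 to 3.24 FPKM. Every exposed value lay between control 1 and control 2. The log2 fold change was -0.16 (SE 0.18, limma adjusted p = 0.577) in the NE group and -0.12 (SE 0.18, limma adjusted p = 0.648) in the brimonidine group, and without control 2 it was 0.10 and 0.14.

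Genes around the 9 were then examined by list, beside the 5.49% of all genes that were lower in the NE group. The cytoskeleton, SNARE and calcium-binding genes are used by many kinds of neuron, and Calb1 and Pvalb stand in both the calcium-binding list and that of spiral ganglion neurons. In brimonidine 5, the library with high cerebellar markers, the cytoskeleton, SNARE and calcium-binding genes had medians of 1.56, 1.28 and 1.35 times those of the other 6 brimonidine libraries. NE 3 had medians of 1.68, 1.34 and 1.09 times those of the other 6 NE libraries, with cerebellar markers at 0.706 times. The part of cerebellar cells in the list results was not tested. Of 20 other genes of the neuronal cytoskeleton, 13 were called lower in the NE group and none higher, with a median log2 fold change of -1.58. Among the 4 most abundant, the stathmin gene Stmn3 fell by 1.77 and the tubulin gene Tubb4a by 2.94 on the log2 scale (limma adjusted p = 0.0018 and 0.000371). Tuba1a and Tubb2a were at -0.67 and -0.72, short of the fold minimum. Without control 2, 11 of the 20 were called lower. In the brimonidine group 15 of 20 were lower, 12 of 20 without control 2.

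Of 15 SNARE genes around Snap25, 9 were called lower in the NE group, 6 without control 2, and none higher, with a median of -1.11. The synaptobrevin gene Vamp2 fell by 1.11 and the complexin gene Cplx1 by 1.38 on the log2 scale (limma adjusted p = 0.00115 and 0.0274). Without control 2 neither was called, at -0.84 and -0.91 (limma adjusted p = 0.000205 and 0.127). Napa, which serves vesicle fusion in all cells, had -0.29, and Snap23, the counterpart of Snap25 outside neurons, had 0.18. In the brimonidine group the same number, 9 of 15, were lower, 7 without control 2.

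Other spiral ganglion neuron genes were lower in 6 of 14 tested for NE alone and in 7 of 14 in the brimonidine group, and without control 2 in 2 of 11 and 3 of 12. Of these calls, 3 in the NE group (Ntrk3, Prox1 and Th) and 2 in the brimonidine group (Prox1 and Th) were of genes that reached 1 FPKM in controls only. These genes passed the filter through the group where they were high, were not tested without control 2, and are named here after their values were seen. Calb1, calbindin, which cerebellar Purkinje cells hold in abundance, fell by 3.88 on the log2 scale (limma adjusted p = 6.37e-05). Its values were 24.8, 62.6 and 23.7 FPKM in controls 1, 2 and 3, 0.492 to 2.35 FPKM in the NE group, 9.71 FPKM in brimonidine 5, and 0.527 to 1.30 FPKM in the other 6 brimonidine libraries. Pvalb and Thy1, both abundant in type I neurons, had -0.71 and -0.89 in the NE group (limma adjusted p = 0.0773 and 0.0376), neither called. In the brimonidine group Thy1 fell by 1.15 on the log2 scale (limma adjusted p = 0.00699), but without control 2 it had -0.77, under the fold minimum, and Pvalb had -0.98 with all controls.

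Of 14 calcium-binding protein genes tested, 5 were called lower in the NE group: Calb1, Ncs1, Cabp1, Hpca and Necab1, the last 4 by 1.22 to 1.52 on the log2 scale. The same 5 were called lower in the brimonidine group. Necab1 reached 1 FPKM in controls only, as did Hpca in the comparison with the brimonidine group, so both passed the filter through the group where they were high. Without control 2, when such genes were not tested, the counts were 3 of 13 and 3 of 11, and Ncs1 was the gene tested but no longer called in the NE group, at -0.997, just under the fold minimum. The calmodulin genes Calm2 and Calm3 had -0.47 and -0.36, and S100b had -0.39, none called. Among ephrins and Eph receptors, 1 of 15 tested was called lower in the NE group, Epha8, at -2.16. Epha8 was at 3.18, 6.96 and 2.97 FPKM in controls 1, 2 and 3 and at most 0.561 FPKM in exposed libraries, so it passed the filter through controls only and was not tested without control 2. The most abundant of these, Efna1, Ephb4, Efnb1 and Epha2, had -0.11, -0.02, -0.10 and 0.39.

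**Figure D5:**
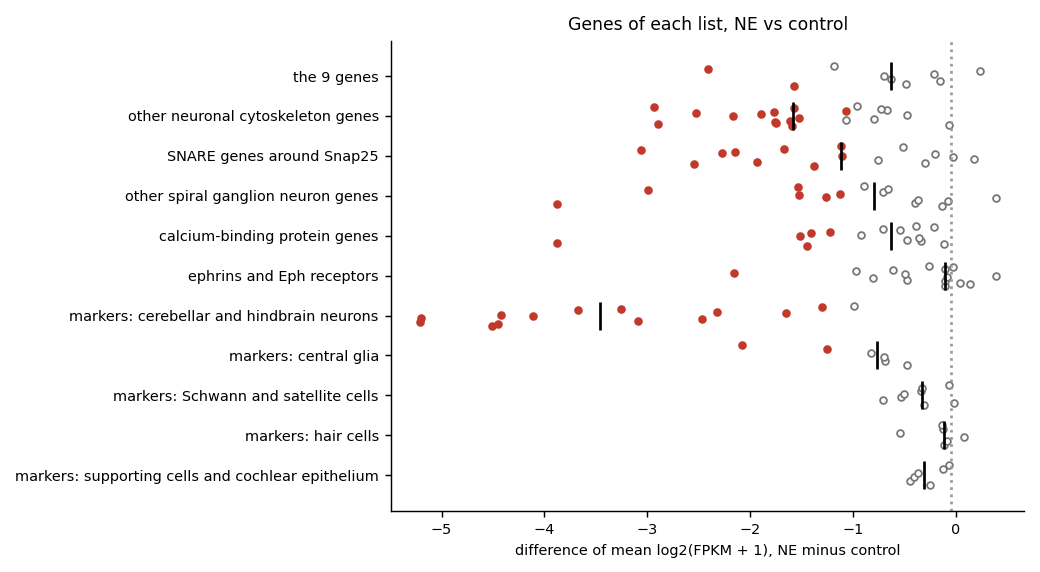
Difference of mean log2(FPKM + 1), NE minus control, of each gene tested among the 9 genes and in 10 lists (x axis); red points were called lower, open points were not called, black ticks are list medians and the dotted line is the median of all genes tested, -0.04. The 14 cerebellar and hindbrain markers lie farthest to the left, with a median of -3.46, and the markers of Schwann cells, hair cells and supporting cells lie between -0.71 and 0.08 with none called.

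Markers of the cochlear cells next to these neurons did not pass the test in either comparison with controls. None of 8 Schwann cell markers was called, with a median of -0.33 after NE and -0.34 with brimonidine, and -0.07 and -0.01 without control 2. None of 6 hair cell markers tested in the NE group was called, with Otof at -0.12 and Ocm at -0.55, and Slc17a8, the vesicular glutamate transporter of inner hair cells, was at 0.382 to 1.13 FPKM in controls and 0.435 to 0.873 FPKM in the NE group. None of 6 supporting cell markers was called. Central glia had 2 of 6 markers lower in the NE group, Slc1a2 at -2.08 and Mog at -1.25, and 3 of 6 in the brimonidine group, Mobp being the third, and without control 2 the counts were 1 of 6 and 2 of 6, with Mog at -0.97 in the NE group and Mobp at -0.82 in the brimonidine group. Gfap, at -0.70 (limma adjusted p = 0.0412), was under the fold minimum. None of 8 T cell, 6 osteoblast or 8 marrow markers was called, with Cd3e at 0.323 to 0.884 FPKM in all libraries. Between the brimonidine and NE groups, no gene of any list was called.

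The genes most like 4 of the members were ranked by Pearson correlation of log2(FPKM + 1), as a description. Over the 14 exposed libraries after subtraction of group means, the genes most like Nefl among 14673 were Mllt11 (r = 0.907), Cplx1 (0.906) and Sult4a1 (0.906), and Nefh (0.892) and Tubb3 (0.89) came next. Without NE 3 these were 0.823, 0.899, 0.816, 0.936 and 0.793. Nefm ranked 13th, at 0.853. The libraries share batch and depth in unknown ways, and points of the same library hold the same mixture of tissues.

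Prph did not follow the neurofilaments: its r with Nefl was 0.503, with Nefm 0.484 and with Nefh 0.277, and without NE 3 these were -0.01, 0.305 and -0.01. Its closest genes were the sodium channel Scn7a (0.937, and 0.887 without NE 3), Tmem233 (0.872, and 0.692) and the synuclein gene Sncg (0.867, and 0.695). Over all 17 libraries, among 15007 genes whose mean was 1 FPKM or more, Scn7a (0.93), Avil, which encodes advillin of sensory neurons (0.902), and Fgf13 (0.739) led. Scn7a was at 2.27 FPKM in NE 3 and at 0.38 to 1.57 FPKM in the other exposed libraries.

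Calb2 went with Prg4 (0.89), Epb41l4a (0.885) and Samd10 (0.864) over the exposed libraries, followed by Nefh (0.857). Over all 17 its nearest were Dync1i1 (0.973), Fam57b (0.961) and Ina (0.958), and 0.927, 0.895 and 0.897 without control 2. Gata3 went with Ociad2 (0.882), Tacr3 (0.82) and Lmf1 (0.805) over the exposed libraries. Over all 17 its nearest were Adgra3 (0.934), Otoa (0.934), an inner ear epithelial gene, and the cartilage gene Cnmd (0.931), and 0.853, 0.851 and 0.848 without control 2. Its r with Nefl was 0.04 over the exposed libraries and -0.54 with Prph.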

How the data were processed

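RNA of 17 mouse cochlear samples had been extracted with TRIzol and prepared with a TruSeq stranded mRNA kit. The authors deposited FPKM values per gene. The submitters' processing notes name Trimmomatic, HISAT2, Cufflinks, HTSeq and the build mm10, and versions and the strand setting are not given in the sources used here. The authors' DESeq2 comparison was not repeated, because FPKM values are not counts. Multiplied by the exon lengths of GENCODE M21, between 90.9% and 91.6% of the values of a library were whole multiples of 1 step (tolerance 0.02 fragments), which gave depths of 14457726 to 18288842 fragments. These limit precision by counting error only.

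Groups came from the sample titles. Genes that reached 1 FPKM in 3 or more libraries of a comparison were tested on log2(FPKM + 1) with limma 3.58.1 in R 4.3.3 (lmFit, eBayes with a trend), only the 2 groups compared being in the fit. Thresholds were a Benjamini-Hochberg adjusted p under 0.05 over all genes and a log2 fold change of 1 or more in size. Single genes and 3 log2 ratios of FPKM (no pseudocount) went through exact permutation tests, two-sided (scipy 1.17.1, Python 3.11.15), and ratios were adjusted over 9 tests. The fit was tested on simulated data. Replicates are separate mice.

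The 9 genes, the lists of related genes and the markers were chosen with earlier results of these data known. Named genes are the 9, the 4 genes of each list with the highest mean FPKM, called genes of lists with at most 5 of them, defining markers, and the 3 genes most correlated with Nefl, Prph, Gata3 and Calb2. Some of these genes and sequences are not reported here. Alternatives were a pseudocount of 0.1, no filter, 4 rescalings, all 17 libraries in 1 model, array weights, no minimum fold change, a replicate block and each library left out. The rescaling to cochlear epithelium markers and the removal of pairs of libraries, or of control 2 for the lists, were added after seeing the data.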

Additional observations from a re-analysis of the deposited data

Results flagged for a closer look

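Of 24 groups of 7 values tested for a single value standing far from the others (9 genes and 3 ratios in 2 groups), 4 had one by Dixon's criterion on the log2 scale (log2(FPKM + 1) for genes), which chance alone meets in about 1 of 20 groups. Snap25 in brimonidine 5 was 24.0 FPKM, above 8.68 to 12.1 FPKM in the other 6, and that library also had the highest cerebellar and hindbrain marker sum of its group, 90.6. Epha4 in NE 6 was 0.512 FPKM, the lowest of its group. Nefm in NE 1 was 3.56 FPKM, the lowest of its group, and that library was also the lowest for Calb2, Nefl, Nefh, Tubb3 and Snap25. The ratio of Nefh to Nefl in brimonidine 2 was 1.26, the lowest of its group. On the linear scale the criterion was met 4 times as well, with Prph and Tubb3 in NE 3 (10.5 and 24.7 FPKM, the highest of their group) in place of the Nefm value and the ratio.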

How the results depend on the processing

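The count of genes called against controls rested on few libraries. In the NE group 2 of 9 were called, and the count was 1 with array weights (Calb2 at -0.94, adjusted p = 0.00784, short only of the fold minimum) and 1 to 3 when single libraries were removed, the lowest without control 2. In the brimonidine group 3 were called, 2 with array weights (Tubb3 at -0.83, adjusted p = 0.00302, likewise) and 2 to 4 with each library left out. Between the brimonidine and NE groups 0 were called under every alternative run. With the replicate number as a block, 0 were called for NE and 1, Snap25, for brimonidine, with 0 of all 15950 and 236 of all 15947 genes called, so these counts say little about the 9. The values themselves stayed as large: Calb2 had -1.69 and -1.81, and Tubb3 had -1.61 for brimonidine. Only numbers 1 to 3 occur among controls, so this fit rests on 3 pairs, and the numbers do not pair the samples: no same-numbered pair deviated together (correlations of -0.221 to 0.083, all under 0.1). Snap25 had -2.30 under the block in the NE group (adjusted p = 0.212).

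Signs changed only for values that were not called. Against controls, Gata3 turned to 0.0629 (NE) and 0.0952 (brimonidine) after quantile normalization, to 0.00408 and 0.013 after rescaling to cochlear epithelium markers, and to 0.15 in the latter without control 2 and brimonidine 5. With array weights Nefm turned to 0.36 and 0.19, and Nefh to 0.00815 in the NE group. Between brimonidine and NE, Gata3 was -0.0088 with array weights, and Epha4 was 0.00276 with a pseudocount of 0.1 and 0.00345 at equal totals. With each library left out, Prph, Gata3 and Nefm in the NE group spanned -0.0932 to 0.45, -0.42 to 0.10 and -0.51 to 0.23. Gata3 and Nefm in the brimonidine group spanned -0.38 to 0.14 and -0.74 to 0.0014. Between the exposed groups, Prph and Epha4 spanned -0.0814 to 0.40 and -0.0806 to 0.0319, and the log2 ratio of Nefm to Nefl -0.0702 to 0.0388. The cause was not tested. Tubb3 in the NE group was called with all 17 libraries in 1 model, without NE 3 and without control 1, and Nefl in the brimonidine group without control 1 and without control 3. Rescaling to epithelial markers moved the median of all genes from -0.04 to 0.10 in the NE group.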
